A study of Mus musculus with 4 samples.

Results

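Expressed solute carrier genes of macrophages are described here: the symbols made of Slc and a digit that were found once in each of the 2 deposited tables with at least 1 FPKM (fragments scaled by gene length and library size) in at least 2 of the 4 libraries. Of 378 Slc symbols in both tables, whatever their level, 10 were left out by name, among them carriers of arginine, cystine, glucose, lactate and iron. The remaining 368 divided into 175 that reached the level and 193 that did not, so the members were selected on their FPKM in all 4 libraries, and the levels below are a description. The 175 are part of 10202 genes that reached the same level, out of 22554 names found once in each table. Of the 175, 5 symbols do not name a carrier: Slc9a3r1 and Slc9a3r2 encode scaffold proteins, Slc4a1ap encodes an adaptor, Slc7a6os is a gene on the other strand of Slc7a6, and Slc2a4rg-ps is a pseudogene.

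Solute carriers are membrane proteins that move nutrients, ions, metals and nucleotides across the plasma membrane and across the membranes of mitochondria, lysosomes and the secretory pathway. Their symbols, Slc followed by a family number, group them by sequence family, and a family often shares a class of substrate. In macrophages, carriers supply amino acids, glucose and metals, export lactate, and pass the products of digestion out of lysosomes.

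Macrophages of the mouse line RAW264.7 were grown by themselves in the mock group (2 libraries) or together with tumour cells of the mouse colon carcinoma line CT26 in the coculture group (2 libraries). Neither group carried a labelled genetic change or drug, so the groups differed by label only in the presence of the tumour cells, and both rest on 1 cell line. Mock 1 and coculture 1 stand in one table (pair 1) and mock 2 and coculture 2 in the other (pair 2). The sources used here do not give the coculture time, the coculture medium or how macrophages were parted from CT26 cells. The question the design poses is which macrophage messenger RNAs differ when tumour cells are present.

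Estimated depth was 12200000 to 16200000 reads per library, read from the size of 1 read among the lowest values. Of the 10 macrophage markers examined, 9 reached the filter, and the list summed to 9377 and 5466 FPKM in mock 1 and 2 and to 9877 and 12828 FPKM in coculture 1 and 2. The 10 epithelial markers summed to at most 0.166 FPKM in any library, with Epcam, Krt18, Cldn3, Cldn4 and Esrp1 listed at 0 in all 4. The 10 mesenchymal markers summed to 2.58 and 1.71 FPKM in mock 1 and 2 and to 1.88 and 1.37 FPKM in coculture 1 and 2, with Col3a1 and Postn at 0 in all 4. Most of this sum was Tagln, the 1 mesenchymal marker that reached the filter (1.93 and 1.64 in mock, 1.59 and 1.34 FPKM in coculture). Within each pair the macrophage sum was higher in coculture, although of the 9 markers tested 3 were higher, 3 lower and 3 of opposite sign in the pairs. Cd14, higher in both pairs, stood at 607 and 354 in mock against 1732 and 1149 FPKM in coculture. Csf1r, lower in both, stood at 637 and 535 in mock against 472 and 397 FPKM in coculture. Cd68 and Ptprc were also lower in both pairs. Lyz2, of opposite sign in the pairs, was the largest part of the sum, at 7088 and 3529 in mock against 6585 and 10287 FPKM in coculture. The part of these markers in the differences below was not tested. In such bulk samples, fewer cells expressing a gene and less RNA of that gene per cell cannot be told apart.

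Each difference below subtracts the mock value from the coculture value after log2(FPKM + 1), a scale that understates changes of low genes. Counts past 2-fold are on that scale. Differences were tested in limma with the pair as a block and adjusted over all 10202 genes (Benjamini-Hochberg). None of the 175 genes passed an adjusted p of 0.05, where 13 of all genes (0.127%) passed as higher and 0 (0.0%) as lower. At an unadjusted p under 0.05, 9 members were higher (5.26% of all genes) and 16 lower (9.45% of all genes), which is 5.14% and 9.14% of the members and so near the background. After centring each library on its median, all genes gave 85 higher and 18 lower calls, and members gave 2 higher and 0 lower. Members then split 13 higher and 14 lower where limma's p before adjustment fell under 0.05, beside 756 and 705 of all 10202 genes. After quantile normalization members gave 1 higher and 0 lower call. Their unadjusted split was then 13 and 13, beside 655 and 803 of all 10202 genes. With 2 pairs, an exact permutation test of a single gene cannot give a p below 0.5.

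Beside the members whose levels differed most, the 250 bases upstream of the annotated start are shown for 3 genes that were higher in coculture in both pairs (Slc31a2, Slc4a7 and Slc20a1) and for the gene with the largest lower value in both pairs (Slc44a2), so that the regulatory DNA can be read next to the measurements. Slc15a3, with the largest difference, had no entry. Slc20a1 was taken ahead of Slc25a33, Slc12a4 and Slc6a4, a choice made after values were seen. These 3 rank above it by the smaller of the 2 pair differences. The sequences are RefSeq's for build GRCm38.p6, each on the + strand, at chr4:62286179-62286428, chr14:14718534-14718783, chr2:129198523-129198772 and chr9:21320469-21320718 in that order, and the first of 2 annotated starts was taken for Slc20a1 and Slc44a2. Capitals mark matches to any of 4 motifs searched on both strands: the kappaB consensus, the AP-1 motif TGANTCA, the interferon-stimulated element read as GAAA, any 2 bases and GAAA, and the GC box GGGCGG. Matches were allowed to overlap.
Slc31a2: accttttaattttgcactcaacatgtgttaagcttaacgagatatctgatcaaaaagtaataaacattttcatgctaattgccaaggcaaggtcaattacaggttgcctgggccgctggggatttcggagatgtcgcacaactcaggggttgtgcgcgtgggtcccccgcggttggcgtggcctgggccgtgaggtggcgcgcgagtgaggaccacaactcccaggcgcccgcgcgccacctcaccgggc
Slc4a7: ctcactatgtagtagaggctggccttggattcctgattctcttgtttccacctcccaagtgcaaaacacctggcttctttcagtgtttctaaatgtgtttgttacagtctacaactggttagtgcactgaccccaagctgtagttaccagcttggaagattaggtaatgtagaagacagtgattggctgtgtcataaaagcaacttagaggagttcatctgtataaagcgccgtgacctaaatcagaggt
Slc20a1: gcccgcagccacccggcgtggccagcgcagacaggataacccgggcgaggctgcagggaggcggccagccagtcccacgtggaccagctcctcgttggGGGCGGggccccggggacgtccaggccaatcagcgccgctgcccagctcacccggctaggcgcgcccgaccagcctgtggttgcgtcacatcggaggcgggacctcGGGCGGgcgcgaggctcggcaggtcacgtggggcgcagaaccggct
Slc44a2: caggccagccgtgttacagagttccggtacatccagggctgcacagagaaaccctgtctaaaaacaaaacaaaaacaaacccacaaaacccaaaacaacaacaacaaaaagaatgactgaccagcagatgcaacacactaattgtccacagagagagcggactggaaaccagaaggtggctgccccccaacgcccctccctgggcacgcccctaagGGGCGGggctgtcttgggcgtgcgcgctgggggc

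The Slc31a2 and Slc4a7 windows held none of the 4 motifs. The Slc20a1 window held GC boxes at positions -152 to -147 and -46 to -41 relative to the start, and the Slc44a2 window held 1 at -34 to -29. A total of 134 of the 175 members matched a RefSeq entry, with 186 windows. GC boxes lay in 60.8% of members' windows, in 58.8% of the windows of genes that reached the same FPKM level and in 32.7% of all windows. The kappaB consensus lay in 9.14%, 8.86% and 7.25% of the same 3 sets, TGANTCA in 4.84%, 4.08% and 6.75%, and the paired GAAA element in 1.61%, 2.64% and 2.98%. Members higher or lower in both pairs were ranked by the smaller of their 2 pair differences. Of the 12 ranked first as higher, 10 had a window: 7 held a GC box, 1 (Slc7a7) the kappaB consensus and 1 (Slc9a3r2) TGANTCA. Of the 12 ranked first as lower, 10 had a window: 8 held a GC box and 1 (Slc43a2) the kappaB consensus. These letter matches are a description of the windows.

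The median member had 11.98 and 12.3 FPKM in mock 1 and 2 and 11.2 and 13.5 FPKM in coculture 1 and 2, and the members together took 1.12% to 1.23% of a library's FPKM. Over the 4 libraries, 8 members averaged at least 100 FPKM, 105 at least 10 FPKM and 21 under 2 FPKM. A total of 156 members reached 1 FPKM in all 4 libraries, 10 in 3 and 9 in 2.

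Mitochondrial carriers (family Slc25, 36 members) were the most abundant group and held 34.9% to 37.5% of the members' FPKM. Slc25a5, which exchanges ADP for ATP across the inner membrane, had 552 and 498 FPKM in mock 1 and 2, and 593 and 515 FPKM in coculture 1 and 2. Slc25a3, the phosphate carrier that supplies ATP synthase, stood at 313 and 291 in mock against 330 and 267 FPKM in coculture. Slc25a4, another ADP/ATP exchanger, stood at 202 and 167 in mock against 190 and 160 FPKM in coculture. For all of these 3 genes, mock and coculture overlapped, and the order Slc25a5, Slc25a3, Slc25a4 was the same in every library. Slc25a4 and Slc25a5 are closely related, and the counting of reads shared by such copies is unknown here.

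The amino acid and peptide group, set by family number, followed with 25 members and 17.2% to 22.9% of the members' FPKM. It includes Slc6 carriers of other solutes: Slc6a12 (betaine and GABA, mean 153.5 FPKM), Slc6a6 (taurine, mean 153.1 FPKM) and Slc6a4 (serotonin). Slc1a5, which exchanges glutamine and other neutral amino acids, stood at 162 and 127 in mock against 176 and 167 FPKM in coculture. Slc38a2, a sodium-coupled neutral amino acid importer, chosen after its values were seen, stood at 161 and 135 in mock against 115 and 134 FPKM in coculture. Their means of 158 and 136 FPKM, with SDs over the 4 libraries of 21.4 and 18.7, were closer than their combined spread. In other groups the most abundant members were Slc16a1, which carries lactate and pyruvate (86.3 to 97.1 FPKM), Slc39a7, which releases zinc from the endoplasmic reticulum into the cytosol (75.4 to 97.9 FPKM), Slc27a1, a fatty acid transport protein (45.1 to 120 FPKM), Slc35b1, which brings ATP into the endoplasmic reticulum (54.1 to 71.6 FPKM), and Slc20a1. Among symbols of no carrier it was Slc7a6os (23.6 to 33.5 FPKM), whose reads cannot be told from those of Slc7a6 if strand was not used in counting.

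**Figure D1:**
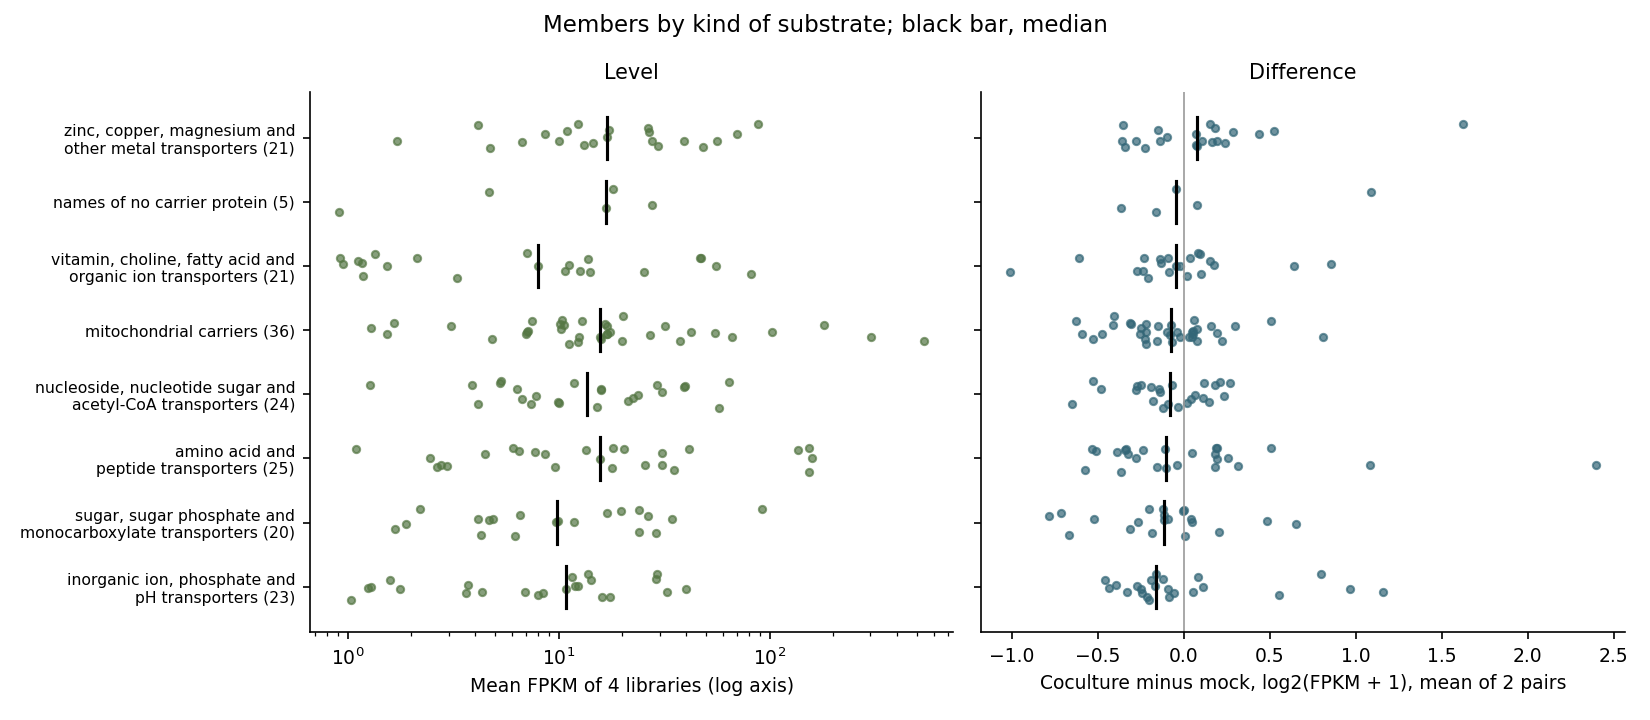
Left, each member's mean FPKM over the 4 libraries (log axis); right, its difference between coculture and mock (log2(FPKM + 1), mean of the 2 pairs). Each point is a gene, rows are kinds of substrate with the number of members, and black bars are medians: the group medians of the difference lie between -0.16 and 0.08, while Slc15a3 at 2.39 and Slc31a2 at 1.62 lie far to the right of their groups.

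In 128 of 175 members (73.1%) the difference was under 1.5-fold in each pair, beside 79.8% of all genes. The median difference over the members was -0.09, beside -0.07 over all genes. The members' median was -0.14 in pair 1 and -0.01 in pair 2, beside -0.09 and -0.06 over all genes. In both pairs, 38 members were higher (21.5% of all genes) and 68 lower (42.2% of all genes), and 69 had opposite signs (35.8% of all genes). These are 21.7%, 38.9% and 39.4% of the members, near the shares of all genes. After median centring, 54 members were higher in both pairs and 56 lower, beside 3082 and 3286 of all 10202 genes. Correlation between pair 1 and pair 2 across the 175 members, as a description over genes that share libraries and are not replicates, was 0.39 (Pearson) and 0.27 (Spearman), or 0.23 and 0.24 without Slc15a3 and Slc31a2, beside 0.48 and 0.37 across all genes.

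**Figure D2:**
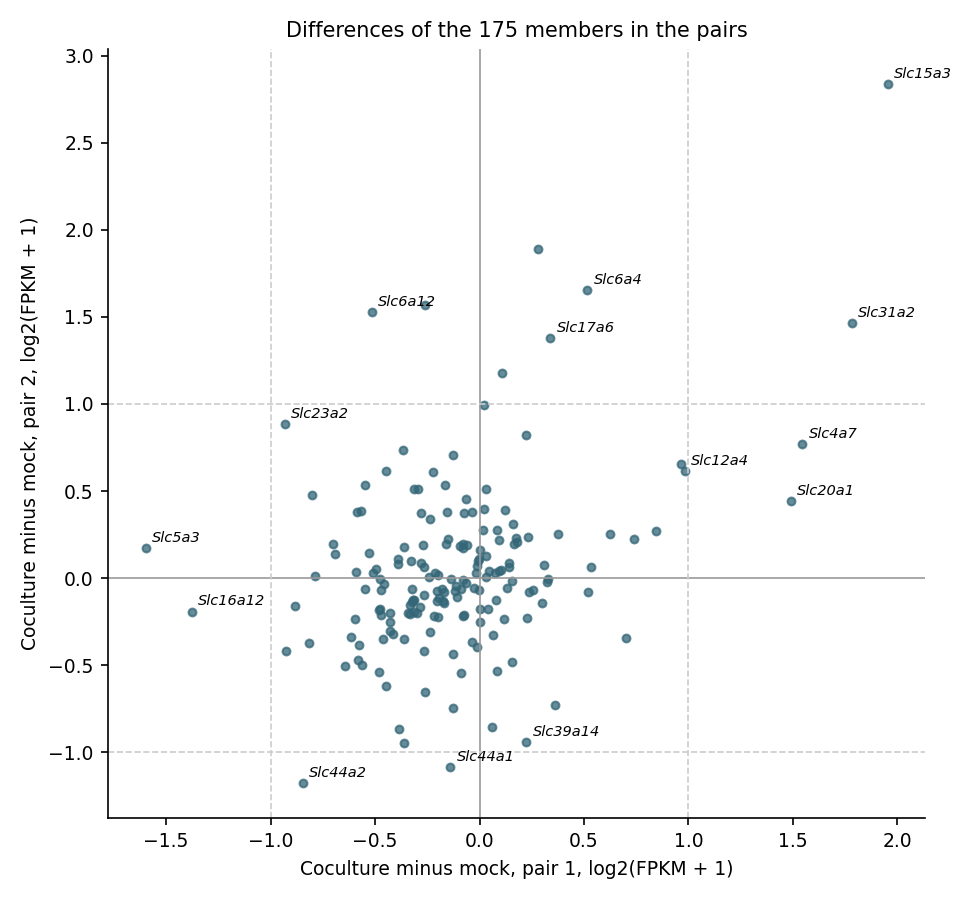
Difference between coculture and mock (log2(FPKM + 1)) in pair 1 (horizontal) and pair 2 (vertical) for the 175 members, 1 point each, with dashed lines at 2-fold. Slc15a3 and Slc31a2 are the 2 members past 2-fold in both pairs, the lower left corner past 2-fold is empty, and Slc5a3, Slc6a12 and Slc23a2 lie in the quadrant lower in pair 1 and higher in pair 2.

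Among amino acid and peptide carriers, the lysosomal carrier gene Slc15a3 had the largest difference of all 175 members. Its protein moves histidine and small peptides, bacterial muramyl dipeptide among them, out of endolysosomes together with protons. Slc15a3 stood at 5.50 and 8.22 in mock against 24.2 and 64.8 FPKM in coculture, so both coculture libraries were above both mock libraries. This is 4.40-fold in pair 1 and 7.88-fold in pair 2, a difference of 2.39 ± 0.25 (moderated SE over 2 pairs). Its limma adjusted p was 0.072. Its call changed with scaling: limma's adjusted p was 0.0178 after median centring and 0.0594 after quantile normalization. It was 0.736 with no filter on low values and 0.952 without the pair block.

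Slc15a4, a carrier of the same family and substrates that also resides in endolysosomes, had values in the other direction. It stood at 21.5 and 27.3 in mock against 15.5 and 17.5 FPKM in coculture, with no overlap between the groups and a difference of -0.53 ± 0.13 (limma adjusted p = 0.23). In mock, Slc15a4 was above Slc15a3 in both libraries, and in coculture Slc15a3 was above Slc15a4 in both. Slc36a1, which exports small amino acids from lysosomes with protons, stood at 7.36 and 8.26 in mock against 4.99 and 5.36 FPKM in coculture (difference -0.51 ± 0.16, limma adjusted p = 0.287). Slc43a2, a carrier of large neutral amino acids, stood at 46.0 and 38.9 in mock against 29.1 and 27.2 FPKM in coculture (difference -0.57 ± 0.12, limma adjusted p = 0.189). Slc36a1 and Slc43a2 were lower in both coculture libraries than in either mock library.

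Slc7a7, the light chain of an exchanger for cationic and neutral amino acids, stood at 1.69 and 3.39 in mock against 2.48 and 4.24 FPKM in coculture. It was higher within each pair, but the groups overlapped, with a difference of 0.31 ± 0.18 (limma adjusted p = 0.487). Without mock 1, and without the block, the difference of Slc7a7 was -0.039. Of the 25 amino acid and peptide carriers, 5 were higher and 10 lower in both pairs, beside 21.5% and 42.2% of all genes. The group median was -0.37 in pair 1 and 0.14 in pair 2.

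Genes of the Slc6 and Slc5 families that carry organic osmolytes, small molecules cells use to balance their volume, had these values. Slc6a6, the taurine carrier, stood at 161 and 184 in mock against 120 and 147 FPKM in coculture (-0.37 ± 0.11, limma adjusted p = 0.288), with no overlap. Slc6a12, the betaine and GABA carrier, stood at 143 and 94.9 in mock against 100.2 and 275 FPKM in coculture, so it was lower in pair 1 and highest of all in coculture 2. Its neighbour Slc6a13, another GABA carrier picked with its values known, was likewise lower in pair 1 and higher in pair 2, with 11.1 and 16.5 in mock against 9.32 and 25.6 FPKM in coculture. Slc5a3, which imports myo-inositol, chosen after its values were seen, stood at 21.8 and 18.5 in mock against 6.54 and 20.9 FPKM in coculture, so coculture 1 alone was low. Pair differences were -0.41 and -0.32 for Slc6a6, -0.51 and 1.53 for Slc6a12, -0.22 and 0.61 for Slc6a13, and -1.60 and 0.17 for Slc5a3.

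Metal carriers (21 members) had a median difference of 0.08, or 0.03 after rescaling to a common total, 0.14 after median centring and 0.14 after quantile normalization. Of these, 9 were higher and 5 lower in both pairs, beside 21.5% and 42.2% of all genes. Slc31a2, which encodes a copper transporter-like protein of endolysosomal membranes, stood at 5.82 and 5.08 in mock against 22.5 and 15.8 FPKM in coculture. The groups were far apart, at 3.86-fold in pair 1 and 3.11-fold in pair 2. Its difference of 1.62 ± 0.16 had the lowest limma adjusted p of the 175 members (0.0685). That value was 0.0228 after median centring and 0.0482 after quantile normalization. It was 0.736 with no filter on low values and 0.806 without the pair block. Slc31a1, the copper importer of the plasma membrane and the other member of the family, chosen after its values were seen, stood at 22.9 and 30.3 in mock against 25.4 and 31.8 FPKM in coculture, with overlap and a difference of 0.10 ± 0.12 (limma adjusted p = 0.716).

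Slc39a1, a zinc importer, stood at 55.9 and 62.7 in mock against 86.7 and 74.9 FPKM in coculture, with no overlap and a difference of 0.44 ± 0.14 (limma adjusted p = 0.297). Slc39a14, an importer of zinc and iron, chosen after its values were seen, was not alike in the pairs, at 45.1 and 39.5 in mock against 52.9 and 20.1 FPKM in coculture. Of 9 members of family Slc39, which bring zinc and other metals into the cytosol, 3 were higher and 2 lower in both pairs. Of 6 zinc exporters of family Slc30, 4 were higher and 1 lower. Over all genes the shares were 21.5% higher and 42.2% lower.

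Carriers of inorganic ions, phosphate and bicarbonate (23 members) had a median of -0.16, and at an unadjusted p under 0.05 it held 4 higher and 0 lower members, beside 5.26% and 9.45% of all genes. Slc4a7, a sodium bicarbonate cotransporter that brings base into the cell, stood at 20.02 and 18.1 in mock against 60.3 and 31.6 FPKM in coculture (difference 1.16 ± 0.22, limma adjusted p = 0.174). Slc20a1, a sodium-coupled phosphate importer, stood at 26.8 and 23.6 in mock against 77.1 and 32.4 FPKM in coculture (0.97 ± 0.27, limma adjusted p = 0.266). Slc12a4, a potassium chloride cotransporter that lowers cell volume, stood at 22.8 and 18.6 in mock against 46.0 and 29.1 FPKM in coculture (0.80 ± 0.15, limma adjusted p = 0.168). Slc9a4, a sodium proton exchanger, stood at 5.78 and 6.67 in mock against 11.2 and 8.23 FPKM in coculture (0.56 ± 0.20, limma adjusted p = 0.331).

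Leaving out 1 library at a time, unblocked, moved the difference of Slc4a7 to between 0.70 and 1.61 and that of Slc20a1 to between 0.35 and 1.58, both lowest without coculture 1. These 4 ion carriers were named for being higher in both pairs, so their agreement follows in part from that choice. In each, both coculture libraries were above both mock libraries (10.3% of all genes), and pair 1 showed the larger difference. For Slc4a7 the pair differences were 1.54 and 0.77, and for Slc20a1 1.49 and 0.44. The group's median stayed below 0 after rescaling (-0.21), median centring (-0.095) and quantile normalization (-0.09). In both pairs 6 of the 23 were higher and 11 lower, beside 21.5% and 42.2% of all genes.

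Of 36 mitochondrial carriers, 5 were higher and 16 lower in both pairs, beside 21.5% and 42.2% of all genes. The group median was -0.08. After median centring the counts were 11 and 13, beside 3082 and 3286 of all 10202 genes. Slc25a33, a pyrimidine nucleotide carrier, was the largest higher value, at 10.1 and 7.16 in mock against 20.6 and 11.8 FPKM in coculture (0.81 ± 0.16, limma adjusted p = 0.182). On the lower side, Slc25a51, which brings NAD into mitochondria, stood at 16.9 and 20.7 in mock against 11.1 and 14.4 FPKM in coculture (-0.53 ± 0.13, limma adjusted p = 0.23). Neither gene's groups overlapped.

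Slc25a28, a mitochondrial iron importer, stood at 19.98 and 26.02 in mock against 14.2 and 20.2 FPKM in coculture (-0.41 ± 0.13, limma adjusted p = 0.29). Slc25a45 stood at 19.3 and 21.5 in mock against 10.6 and 16.4 FPKM in coculture (-0.59 ± 0.17, limma adjusted p = 0.263). Slc25a23, which exchanges ATP-magnesium for phosphate, stood at 7.92 and 24.6 in mock against 5.83 and 13.0 FPKM in coculture (-0.63 ± 0.18, limma adjusted p = 0.272). The groups were apart for Slc25a45 and overlapped for Slc25a28 and Slc25a23. Without mock 2, and without the block, the difference of Slc25a23 was 0.13.

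**Figure D3:**
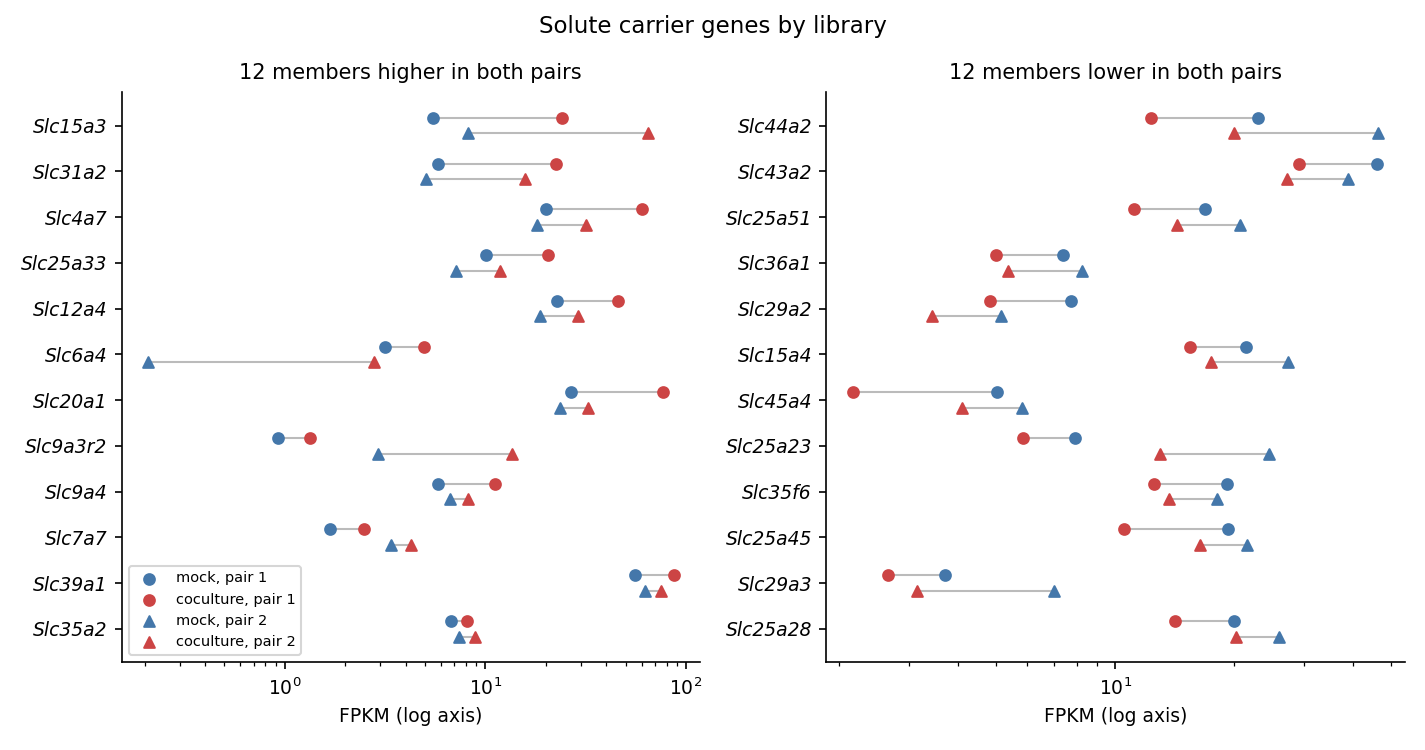
FPKM (log axis) in the 4 libraries of 12 members higher (left) and 12 lower (right) in both pairs. They are those ranked first by whichever pair showed less of a difference, among members with a mean of at least 2 FPKM. Blue is mock and red coculture, circles are pair 1 and triangles pair 2, and grey lines join a pair. Slc15a3 runs from 5.50 to 24.2 and from 8.22 to 64.8 FPKM, and Slc44a2 from 22.9 to 12.3 and from 46.4 to 19.98 FPKM.

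The largest lower value in both pairs was that of Slc44a2, a choline transporter-like gene. Slc44a2 stood at 22.9 and 46.4 in mock against 12.3 and 19.98 FPKM in coculture, so both coculture libraries lay below both mock libraries (difference -1.01 ± 0.14, limma adjusted p = 0.123). Without mock 2 and without the block the difference of Slc44a2 was -0.52, and without mock 1 it was -1.50. Its family member Slc44a1, a choline carrier chosen after its values were seen, stood at 49.0 and 64.9 in mock against 44.4 and 30.1 FPKM in coculture. Slc44a1 was also lower in both coculture libraries, with pair differences of -0.14 and -1.08. Slc23a2, the ascorbate importer, chosen after its values were seen, had opposite pair differences of -0.93 and 0.88, at 71.1 and 40.3 in mock against 36.8 and 75.1 FPKM in coculture. Of the 21 vitamin, choline, fatty acid and organic ion carriers, 3 were higher and 6 lower in both pairs (21.5% and 42.2% of all genes). Their median was -0.05, or 0.02 after median centring.

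Of 24 carriers of nucleosides, nucleotide sugars and acetyl-CoA, 7 were higher and 11 lower in both pairs (21.5% and 42.2% of all genes). After median centring the counts were 8 and 8, beside 3082 and 3286 of all 10202 genes. The nucleoside carriers named were on the lower side. Slc29a2, which equilibrates nucleosides across the plasma membrane, stood at 7.74 and 5.15 in mock against 4.83 and 3.44 FPKM in coculture (-0.53 ± 0.16, limma adjusted p = 0.291). Slc29a3, its lysosomal relative, stood at 3.72 and 6.99 in mock against 2.67 and 3.15 FPKM in coculture (-0.65 ± 0.22, limma adjusted p = 0.309). Slc35f6 stood at 19.2 and 18.1 in mock against 12.5 and 13.7 FPKM in coculture (-0.48 ± 0.14, limma adjusted p = 0.27). On the higher side, Slc35a2, which carries UDP-galactose into the Golgi, stood at 6.76 and 7.40 in mock against 8.10 and 8.91 FPKM in coculture (0.23 ± 0.15, limma adjusted p = 0.522). The groups did not overlap for any of these 4 genes.

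Among sugar and monocarboxylate carriers (20 members), 2 were higher and 7 lower in both pairs, beside 21.5% and 42.2% of all genes. The group median was -0.12. Slc45a4 stood at 5.02 and 5.80 in mock against 2.17 and 4.10 FPKM in coculture (-0.67 ± 0.21, limma adjusted p = 0.29). Slc16a12, a creatine carrier chosen after its values were seen, stood at 36.3 and 29.8 in mock against 13.4 and 25.97 FPKM in coculture, lowest in coculture 1. Slc16a1, by contrast, varied little, with pair differences of -0.17 and -0.08.

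Over all members, both coculture libraries were above both mock libraries for 21 (10.3% of all genes) and below them for 32 (21.5% of all genes). These are 12% and 18.3% of the members, set across tables that may have been normalized separately. Slc17a6 is among the 21, where the level rule itself put it, as described below. Past 2-fold in both pairs were 2 members on the higher side, Slc15a3 and Slc31a2 (1.02% of all genes), and 0 on the lower side (0.353% of all genes). Past 2-fold in opposite directions were 0 members (0.0686% of all genes). As 1.14% of the members, the higher share is near the background.

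Another 12 members were past 2-fold in 1 pair alone. In pair 1 alone, 2 were 2-fold higher (1.24% of all genes) and 2 lower (1.12% of all genes), and in pair 2 alone, 6 were higher (2.22% of all genes) and 2 lower (1.52% of all genes). The 6 were Slc6a12, Slc6a4, Slc17a6, Slc22a4, Slc45a3 and Slc9a3r2, with Slc22a4 and Slc45a3 chosen after their values were seen. For Slc6a4, Slc17a6, Slc22a4 and Slc45a3, mock 2 was the lowest of the 4 libraries. Slc6a4, the serotonin carrier, stood at 3.15 and 0.208 in mock against 4.94 and 2.80 FPKM in coculture (1.08 ± 0.33, limma adjusted p = 0.284), and its difference without mock 2, unblocked, was 0.19. Slc22a4, which imports ergothioneine, stood at 1.90 and 0.250 in mock against 2.13 and 1.82 FPKM in coculture.

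These low values rest on few reads. With GENCODE M21 exon lengths, Slc6a4 had about 15 reads and Slc22a4 about 10 in mock 2. Slc17a6, a vesicular glutamate carrier, stood at 0.829 and 0.014 in mock against 1.31 and 1.63 FPKM in coculture, with about 1 read in mock 2. It is the 1 member that reached 1 FPKM in both coculture libraries and in neither mock library, so the level rule itself required it to be higher in coculture. Slc9a3r2, the scaffold gene, stood at 0.923 and 2.92 in mock against 1.34 and 13.5 FPKM in coculture (1.09 ± 0.42, limma adjusted p = 0.348), and without coculture 2, and without the block, its difference was -0.23.

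**Figure D4:**
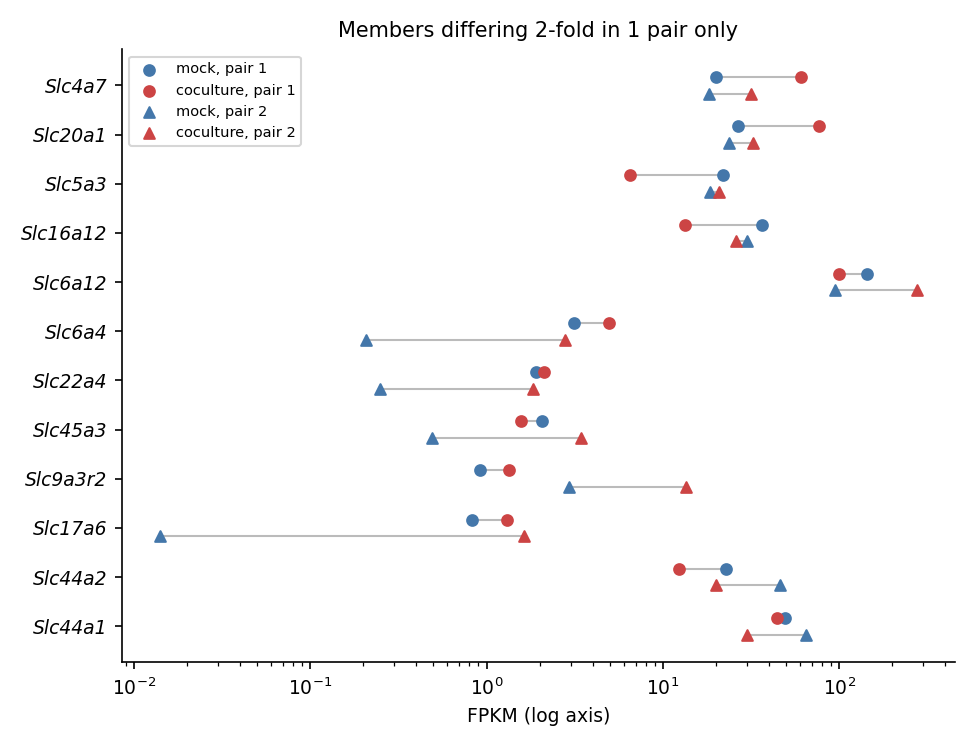
FPKM (log axis) in the 4 libraries of the 12 members that differed 2-fold in 1 pair only. Blue is mock and red coculture, circles are pair 1 and triangles pair 2, and grey lines join a pair. Slc5a3 and Slc16a12 are low in coculture 1, Slc6a4, Slc22a4, Slc45a3 and Slc17a6 are low in mock 2, and Slc6a12 is highest in coculture 2 at 275 FPKM.

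Near the level rule, the members just inside were Slc26a10, Slc7a4 and Slc2a4rg-ps, whose second-highest library stood at 1.001, 1.05 and 1.08 FPKM. Just outside were Slc13a3, Slc25a53 and Slc46a3, at 0.885, 0.870 and 0.854 FPKM. Of the 193 symbols under the rule, 87 were listed at 0 in all 4 libraries, 188 were under 1 FPKM in every library, and 5 reached it in 1 library. Those 5, chosen after their values were seen, were Slc39a4 and Slc7a14 in coculture 2 (1.97 and 1.37 FPKM), Slc46a3 and Slc9a9 in mock 2 (1.73 and 1.47 FPKM) and Slc16a11 in coculture 1 (1.02 FPKM).

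Other transport genes were examined from lists of related proteins. Of 22 tested transporters of solute carrier type with other symbols, 0 passed limma in either direction. Unadjusted at 0.05, 0 were higher and 3 lower, beside 5.26% and 9.45% of all genes. In both pairs 1 was higher and 14 lower (21.5% and 42.2% of all genes), and the median was -0.16. After median centring the counts in both pairs were 3 and 12, beside 3082 and 3286 of all 10202 genes, and the median was -0.09. Among them, Slco4a1, an organic anion carrier, stood at 181 and 154 in mock against 80.3 and 133 FPKM in coculture (limma adjusted p = 0.335). Flvcr1, a heme and choline carrier, stood at 10.6 and 10.8 in mock against 8.31 and 7.41 FPKM in coculture. Ctns, the lysosomal cystine exporter, stood at 7.31 and 10.02 in mock against 3.91 and 7.93 FPKM in coculture. Flvcr1 was lower in both coculture libraries, whereas the groups overlapped for Ctns.

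Of 18 tested ATP-binding cassette transporters, 0 passed limma in either direction. Unadjusted, 2 were higher and 2 lower, beside 5.26% and 9.45% of all genes. In both pairs 2 were higher and 12 lower (21.5% and 42.2% of all genes), with a median of -0.25. After median centring the counts in both pairs were 2 and 9, beside 3082 and 3286 of all 10202 genes, with a median of -0.18. Abca1, the cholesterol exporter, had the largest value, at 0.387 and 2.30 in mock against 3.15 and 12.6 FPKM in coculture (1.81 ± 0.21, limma adjusted p = 0.091). Abca2 stood at 9.66 and 12.9 in mock against 6.64 and 8.10 FPKM in coculture, lower in both coculture libraries than in either mock library.

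Of 11 tested ion-pumping ATPases, 0 passed limma, with 1 higher and 1 lower unadjusted (5.26% and 9.45% of all genes). In both pairs 2 were higher and 4 lower (21.5% and 42.2% of all genes). After median centring these were 5 and 3, beside 3082 and 3286 of all 10202 genes. The median was 0.01, or -0.04 after rescaling and -0.10 after quantile normalization. Atp2b1, a calcium pump of the plasma membrane, stood at 34.9 and 33.2 in mock against 68.1 and 39.3 FPKM in coculture (limma adjusted p = 0.313), and Atp2c1, a Golgi calcium and manganese pump, at 37.4 and 36.3 in mock against 29.4 and 27.5 FPKM in coculture. Of 16 tested accessory and regulatory genes, 0 passed limma, with 1 higher and 1 lower unadjusted (5.26% and 9.45% of all genes). In both pairs 7 were higher and 4 lower (21.5% and 42.2% of all genes), and the median was 0.12. After median centring these counts were 9 and 3, beside 3082 and 3286 of all 10202 genes. Txnip, which promotes uptake of glucose carriers from the cell surface, stood at 92.0 and 177 in mock against 51.7 and 128 FPKM in coculture (-0.64 ± 0.14, limma adjusted p = 0.197). Hif1a, a transcription factor of the hypoxia response, stood at 39.7 and 42.7 in mock against 50.7 and 73.4 FPKM in coculture (0.56 ± 0.15, limma adjusted p = 0.248). Mtf1, a zinc-responsive transcription factor, stood at 4.33 and 4.28 in mock against 5.16 and 5.85 FPKM in coculture (0.29 ± 0.17, limma adjusted p = 0.487).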

How the data were processed

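Messenger RNA of 4 libraries was measured by sequencing: 2 mock and 2 coculture. The values are FPKM deposited by the authors in 2 tables of 23427 and 25239 rows, 1 per replicate number. The submitters' processing notes list the tools Trim Galore, Subread and featureCounts. They give hg38, which is human, as the build, while the gene symbols are those of mouse. The sources used here do not give versions, annotation or gene lengths. From the first table, 23 unnamed rows and 287 rows with repeated names (at most 1.07% of FPKM) were dropped.

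FPKM were used without rescaling, since they are not counts, and transformed to log2(FPKM + 1). All genes at the members' level rule were fitted in limma 3.58.1 (R 4.3.3, trended prior, two-sided test). Replicate number was a block, because each table holds 1 pair. Residual degrees of freedom were 1, and the prior's were 3.43. Libraries of a pair deviated together (correlation 0.76 across genes). The labels do not say whether replicates are separate cultures, so p-values reflect the spread among these 4 libraries, which may be technical. The same limma design was run on simulated data with planted changes, separately from the fits reported here, and its outcome is not given. Depth was estimated from the lowest FPKM steps with GENCODE M21 exon lengths.

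Members and lists were chosen with earlier results of these data known. Named members were the 12 higher and 12 lower in both pairs with the largest smaller within-pair difference (mean of at least 2 FPKM), the 6 most abundant, the most abundant of each role group, those 2-fold in both pairs or in opposite directions, those passing through 1 group alone, the 3 nearest the level rule on each side, and up to 3 genes per related list. Role groups follow family numbers. Alternatives were other pseudocounts, filters and scalings, no block, no trended prior, and leaving out each library.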

Additional observations from a re-analysis of the deposited data

How the results depend on the processing

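Over all genes, limma's 13 higher and 0 lower calls became 22 and 0 with a pseudocount of 0.1, 0 and 0 with no filter on low values, 25 and 1 with at least 5 FPKM, 25 and 1 after rescaling to a common total, 85 and 18 after median centring, and 43 and 3 after quantile normalization. Without the replicate block there was 1 higher call, and without trended variance also 1. Leaving out each library in turn, unblocked, gave 0 limma calls (141 to 275 higher and 35 to 301 lower at an unadjusted p under 0.05). Among the members, 0 calls became 2 higher after median centring (Slc15a3 and Slc31a2) and 1 higher after quantile normalization (Slc31a2); the other alternatives, the fit without the pair block included, gave 0. The 2 members past 2-fold in both pairs were Slc15a3 and Slc31a2 under every pseudocount, filter and scaling tried. The members' median of -0.09 ranged from -0.15 to 0.026 when each library was left out, the highest without coculture 1. Of the 24 leading members, 15 moved over 1.5 times when 1 library was left out, and the other 9, Slc15a3 and Slc31a2 among them, did not. These fits gave no calls over all genes, so they say nothing of the calls. Sign changes were for Slc7a7 (-0.039 to 0.67 over the left-out libraries), Slc25a23 (-1.39 to 0.13) and Slc9a3r2 (-0.23 to 2.40), each unblocked and so across tables. Within the pairs, Slc7a7 and Slc9a3r2 were higher in both and Slc25a23 was lower in both. These fits dropped the block along with the library, so their differences also hold the difference in level between the tables. How far this made the sign changes was not tested. With 2 pairs and 1 residual degree of freedom, a member that missed the threshold is not shown to be the same in both groups.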
